A study of Mus musculus with 2 samples.

Results

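The genes described here bind, make and sense retinoic acid, the active form of vitamin A. They are 9 genes, namely the binding proteins Crabp1 and Crabp2, the retinol receptor Stra6, the synthetic enzymes Aldh1a1, Aldh1a2 and Aldh1a3, and the receptors Rara, Rarb and Rarg. Crabp1 was chosen by its higher signal on the GW9662 array, and the other 8 were chosen by function, so as to ask whether they differed with it. All 9 were read on the array, by 12 of 22690 probe sets, out of 12393 genes with a probe set that names a single gene. A probe set is a group of short oligonucleotides that reads part of a transcript.

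Mammary tumors were induced in female wild-type FVB mice, 5 weeks old at the start, by a subcutaneous injection of 15 mg of the progestin medroxyprogesterone acetate and then 4 weekly doses of 1 mg DMBA, a polycyclic carcinogen, by gavage. The control group was kept on standard chow, and the other group received chow with 0.1% GW9662, an irreversible inhibitor of the nuclear receptor PPARγ, from 1 day after the last DMBA dose. For each diet, RNA of tumors from 5 mice was combined and hybridized to 1 Affymetrix mouse array, so there were no replicates and every difference is given by its size with no p-value. The array number limits the precision of all values, and mice, pools and arrays cannot be told apart as sources of a difference.

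Retinol travels in blood on Rbp4 and enters cells through Stra6. It is oxidized reversibly to retinal by dehydrogenases of the Rdh, Dhrs and Adh groups, and then irreversibly to retinoic acid by the Aldh1a enzymes. In the cytosol retinoic acid is held by Crabp1, which is linked to its breakdown by Cyp26 enzymes, or by Crabp2, which carries it to the nucleus. There, receptors encoded by Rara, Rarb and Rarg bind DNA together with retinoid X receptors (RXR), the same partners that PPARγ uses. In the mammary gland, retinoic acid acts on epithelium and stroma, and fat cells store and release retinol.

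RAR and RXR bind direct repeats of a short hexamer, and the promoters of Crabp1 and Rarb are shown because Crabp1 is the member with the large difference and Rarb is a textbook target of its own ligand. The sequences are the 250 bases before the annotated start site in RefSeq (GRCm38.p6), written 5′ to 3′ on the strand of the gene. Capitals mark the core hexamer AGGTCA, its first variant AGTTCA, the second variant GGGTCA and the third variant GGTTCA on either strand, and any direct repeat of these spaced by 1, 2 or 5 bases. The Crabp1 sequence lies at chr9:54764498-54764747 on the plus strand and the Rarb sequence at chr14:16575477-16575726 on the minus strand.
Crabp1: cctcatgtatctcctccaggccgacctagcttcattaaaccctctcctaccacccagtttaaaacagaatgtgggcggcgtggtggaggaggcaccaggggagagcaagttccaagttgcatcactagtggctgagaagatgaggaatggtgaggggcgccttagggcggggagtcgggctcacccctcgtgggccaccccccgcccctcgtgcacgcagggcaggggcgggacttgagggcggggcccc
Rarb: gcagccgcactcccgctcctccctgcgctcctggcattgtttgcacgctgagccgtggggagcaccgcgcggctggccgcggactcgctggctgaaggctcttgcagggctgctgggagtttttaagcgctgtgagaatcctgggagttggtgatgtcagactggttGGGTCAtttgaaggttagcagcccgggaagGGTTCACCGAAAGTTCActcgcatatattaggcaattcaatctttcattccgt

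The Rarb promoter held a direct repeat spaced by 5 bases, from 53 to 37 bases before the start site (chr14:16575513-16575529). Such a repeat was found in 32 of the 32851 promoter windows of 300 bases searched, or 0.0974%, and in 1 of the 15 windows of members. Both hexamers of the Rarb repeat were among those searched, and Rarb is a known target. Nothing is therefore read from the count in members. Repeats spaced by 1 base (0.222% of windows) and by 2 bases (0.268%) were in no member window. A single hexamer, by contrast, was in 43.7% of all windows and in 6 of the 15. No hexamer was found in the Crabp1 window, which says only that these letters are not there. Promoter windows were available for 7 of the 9 genes. The Crabp1 promoter was 63.6% G and C, and the median of all promoters was 52.4%.

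Crabp1 differed more than any other member. Its single probe set read 775.9 in the control pool and 3207.8 in the GW9662 pool, 4.13-fold higher, with a log2 ratio of 2.05. Signals are linear intensities in arbitrary units, and a log2 ratio is the base-2 logarithm of the GW9662 signal over the control signal. The gene (chr9:54764748-54773110) ranked 6 by log2 ratio among the 6053 genes that reached a signal of 300 in either pool. Since this value chose the gene, it is given as a description. With 1 probe set, no second reading of Crabp1 was available on the array. In its gene ontology results the paper places Crabp1 among downregulated transport genes, opposite to the direction of these signals. The reason for this difference was not tested.

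Crabp2, the nuclear carrier of retinoic acid, had the opposite direction. Its signal was 654.1 in control tumors and 482.3 in GW9662 tumors, 1.36-fold lower, with a log2 ratio of -0.44 (chr3:87948693-87953372). A yardstick is how far probe sets of 1 gene spread around their mean log2 ratio, an SD of 0.36 over 2639 genes, although it holds no variation between mice. The log2 ratio of Crabp2 was slightly beyond this spread, and that of Crabp1 was many times larger. Among the 8009 genes with a mean signal of at least 100, Crabp1 was at percentile 99.9 of log2 ratios and Crabp2 at percentile 14.7.

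**Figure D1:**
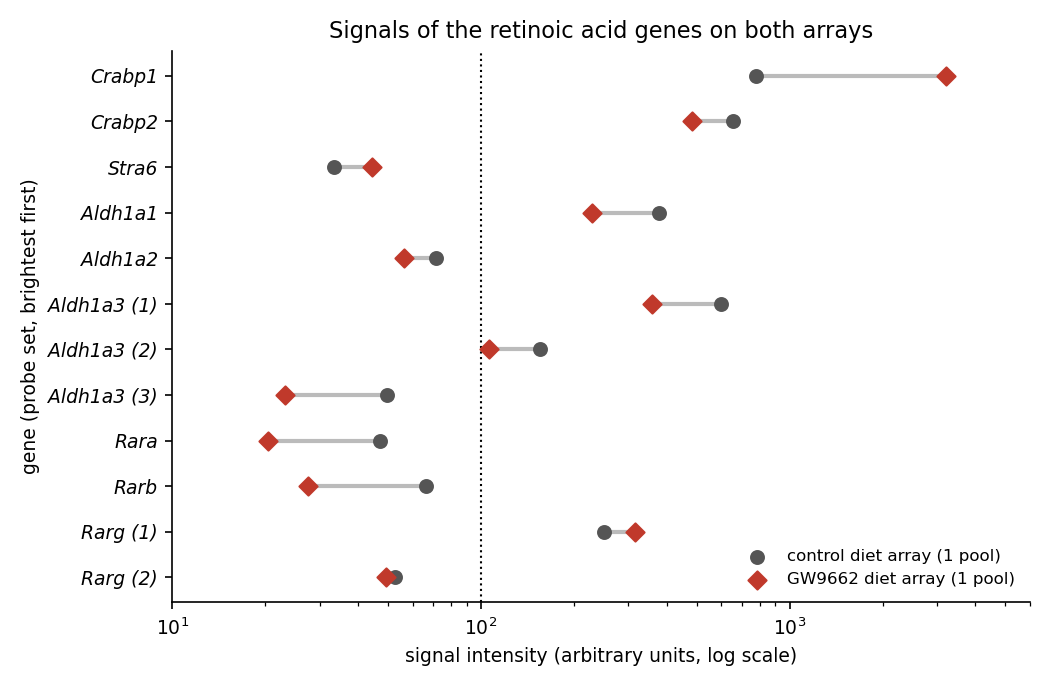
Signal of each of the 12 probe sets of the 9 genes on a log scale (arbitrary units), with circles for the control array and diamonds for the GW9662 array, 1 pool each. The dotted line marks a signal of 100. Crabp1 moved from 775.9 to 3207.8, while most other probe sets lay lower on the GW9662 array or below the line on both.

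Both enzymes of retinoic acid synthesis with signals above the floor of 100, Aldh1a3 and Aldh1a1, were lower on the GW9662 array. Aldh1a3, the retinaldehyde dehydrogenase known from luminal progenitor cells (chr7:66390892-66427477), was read by 3 probe sets, of which the brighter pair was lower. The brightest read 599.5 in control and 359.4 in GW9662 tumors, 1.67-fold lower. The next had 155.0 and 106.0, 1.46-fold lower. The dimmest had 49.5 and 23.2, both below the floor, where values have no order.

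Aldh1a1, a retinaldehyde dehydrogenase of liver, fat and many epithelia, had signals of 377.0 and 229.6, 1.64-fold lower (chr19:20492583-20643463). Its log2 ratio of -0.72 was near the -0.74 of Aldh1a3. Aldh1a1 was at percentile 7.83 and Aldh1a3 at percentile 7.52 of log2 ratios among genes with a mean signal of at least 100. Aldh1a7, a near-identical copy of Aldh1a1 that was looked up after these values were seen, had signals of 869.2 and 89.4 at its own probe set. How much of the Aldh1a1 signal comes from Aldh1a7 RNA was not tested.

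Aldh1a2, the main enzyme of retinoic acid synthesis in the embryo, read 71.7 in control and 56.2 in GW9662 tumors (chr9:71215789-71296243). Both signals were below 100, the floor under which no fold is given and values have no order. Stra6, the receptor that takes up retinol from Rbp4, was also below this floor, with 33.5 and 44.4 (chr9:58063793-58154004). For comparison, the 33 probe sets of olfactory receptors, genes that tumors should not express, had signals of at most 25.8.

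No receptor gene differed by 2-fold with a signal above the floor. Rarg, the receptor known from skin and other epithelia (chr15:102234938-102257522), read 250.4 in control and 315.3 in GW9662 tumors with its brighter probe set, 1.26-fold higher. Its other probe set had 52.5 and 49.2, both below the floor, so no second reading of Rarg was available. Rara, which is widely expressed (chr11:98927800-98974942), had 47.2 and 20.4. Rarb, whose promoter repeat is shown above (chr14:16430839-17082331), had 66.2 and 27.5. The signals of Rara and Rarb were below 100 on both arrays, so their lower values on the GW9662 array have no order.

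Of the 9 members, 1 differed by 3-fold or more in the upward direction and reached a signal of 300 in either pool, and it was Crabp1. Over all 12393 genes, 13 passed this rule, or 0.105%, and since Crabp1 was chosen by this contrast nothing is read from its count. None of the members was at least 3-fold lower, against 162 genes, or 1.31%, of all. A total of 5 members had a mean signal of at least 100, of which 2 were higher and 3 lower, and 4 members were below 100 on both arrays. The median log2 ratio of the 5 was -0.44, and it was -0.58 over the 4 without Crabp1. The median over all 8009 genes with that signal was 0.03, with 52.9% of genes higher and 47.1% lower. Among the members other than Crabp1 that passed the mean signal minimum, the largest log2 ratio in size was 0.74, short of 2-fold.

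**Figure D2:**
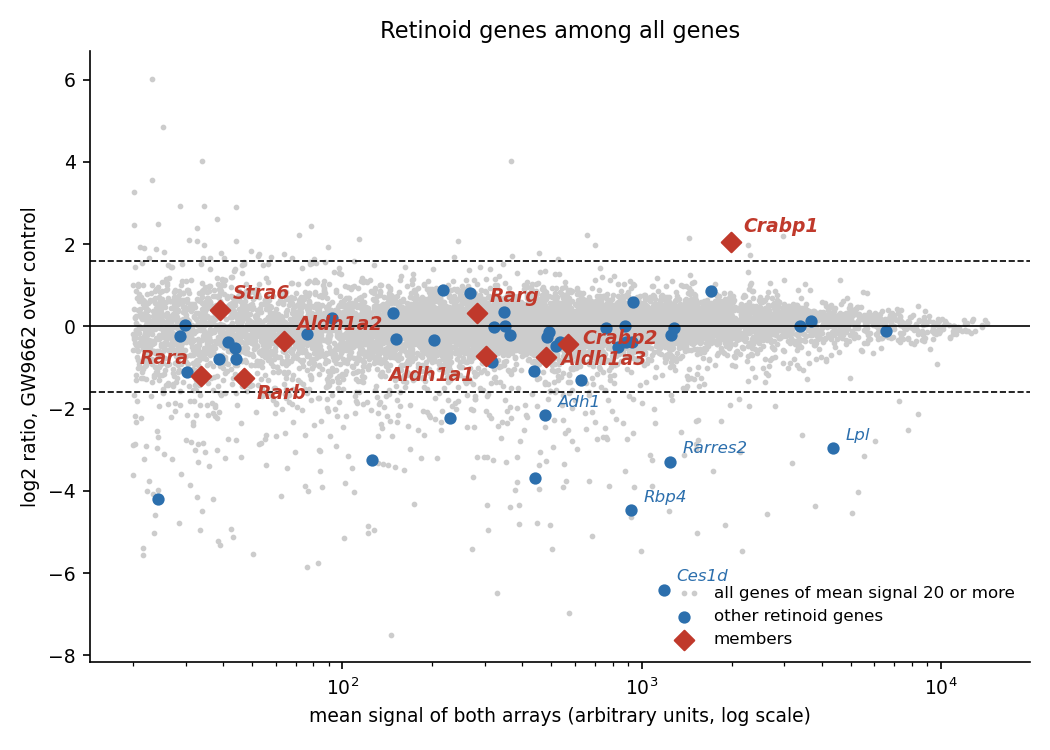
Log2 ratio of GW9662 over control for each gene at its brightest probe set, against the mean signal of both arrays on a log scale. Grey points are genes with a mean signal of 20 or more, blue points other retinoid genes and red diamonds the members, and dashed lines mark 3-fold. Crabp1, at 2.05, lies above the upper line, and Rbp4, Ces1d, Lpl, Rarres2 and Adh1 lie below the lower line.

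The wider retinoid pathway was described with a list of 75 genes in 7 roles, of which 64 were read on the array and 36 had a mean signal of at least 100. Of these 36, 9 were higher and 27 were lower, with a median log2 ratio of -0.28. Over all genes with this signal, 47.1% were lower and the median was 0.03. At least 3-fold, 0 of the 64 were higher and 7 were lower, against 0.105% and 1.31% of all genes. The genes at least 3-fold lower were Rbp4, Lipe, Lpl, Ces1d, Adh1, Retsat and Rarres2. The paper lists 7 genes of the pathway (Rbp4, Rbp7, Retsat, Lipe, Lpl, Dgat1 and, under the older symbol Ces3, Ces1d) among lower metabolic genes. They were selected by array in the same study, so they are not independent evidence of direction. The signals the paper prints for these genes differ from the deposited ones. Without these 7, 29 genes had a mean signal of at least 100, 9 higher and 20 lower, with a median of -0.14. Of 57, 2 (Adh1 and Rarres2) were at least 3-fold lower.

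Genes of retinol transport and of retinyl ester storage and hydrolysis had the largest differences. Rbp4, the retinol carrier of blood, read 1763.8 in control tumors against 79.5 in GW9662 tumors, lower by at least 17.6-fold. Rbp7, a retinol binding protein of fat and its vessels, had 594.3 and 280.9, 2.12-fold lower. Scarb1, a lipoprotein receptor that also takes up carotenoids, had 1001.4 and 773.5, and was lower at each of its 3 probe sets, by up to 1.82-fold. All 3 of the carriers with a mean signal of at least 100 were thus lower.

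The 4 measured genes of retinyl ester storage and hydrolysis lay lower too, and their median log2 ratio, with no floor applied, was -3.33. Ces1d, a carboxylesterase, was at least 23.4-fold lower (2342.9 and 27.7), and its 2 other probe sets were lower too. Lipe, the hormone-sensitive lipase that also cleaves retinyl esters in fat, was at least 8.20-fold lower (819.8 and 63.3). Lpl, which releases fatty acids from lipoproteins, was 7.83-fold lower (7740.1 and 989.1), and 17.4-fold lower with its second bright probe set (2956.7 and 169.9). Dgat1, an acyltransferase that can form retinyl esters, had 889.3 and 362.7. Lrat, the main retinol acyltransferase of other tissues, had 10.6 and 3.4, both below the floor.

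Enzymes that convert retinol and retinal divided into a strongly lower pair and the rest. Adh1, an alcohol dehydrogenase that oxidizes retinol, read 778.4 in control and 173.8 in GW9662 tumors, 4.48-fold lower. Retsat, the retinol saturase, was at least 3.78-fold lower (377.8 and 80.3). The remaining genes of the role with a mean signal of at least 100 differed less than 1.5-fold at the brightest probe set of each, although Rdh11 (225.9 and 178.3) was 1.65-fold lower with its other one (217.7 and 131.6). Among them were Dhrs3, which returns retinal to retinol and is itself induced by retinoic acid (1051.6 and 802.9), Dhrs4 (973.9 and 692.5), Rdh14 (601.4 and 431.5, but 62.5 and 113.5 at a dim probe set) and Rdh10, which makes the retinal used for retinoic acid in the embryo (527.4 and 440.1). Adh5, which acts on formaldehyde adducts and weakly on retinol, was nearly level (3355.6 and 3404.3). Of 9 such genes, 2 were higher and 7 were lower, with a median log2 ratio of -0.39.

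Cyp26a1, the enzyme that degrades retinoic acid and a sensitive target of it, read 16.1 in control and 4.0 in GW9662 tumors, no brighter than olfactory receptor probe sets. Cyp26b1 and Cyp26c1 were on the list too, but no probe set named either of them alone. The partners Rxra (602.3 and 462.7) and Rxrb (771.3 and 746.2) and the lipid carrier Fabp5, which can bring retinoic acid to another PPAR (6767.7 and 6305.5), each differed less than 1.5-fold. Among coregulators, Nrip1, a corepressor that retinoic acid induces, was 1.81-fold lower (408.1 and 224.9) and was lower at its other probe set too (372.0 and 179.9). Crebbp, an acetyltransferase coactivator, was 1.75-fold higher (194.2 and 340.2). The corepressor subunit Hdac3 (1344.2 and 1167.7) and the coactivators Ncoa1 (512.9 and 464.7) and Ncoa3 (166.8 and 135.6) differed little.

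Genes known to respond to retinoic acid had no common direction. Of the 12 with a mean signal of at least 100, 6 were higher and 6 were lower, with a median log2 ratio of 0.06. Meis1, a homeobox cofactor, was 1.83-fold higher (152.7 and 280.0). Tfap2c, an AP-2 factor of luminal and trophoblast cells, was 1.82-fold higher by the brightest of its probe sets (1204.7 and 2197.6), whereas the other probe sets had 746.8 and 879.2, and 613.4 and 664.2. Tissue transglutaminase (Tgm2) had 3521.2 and 3850.9 at its brightest probe set, but 351.1 and 174.9 at a dimmer one, so its direction depended on the probe set.

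In the other direction, Rarres2, which encodes the fat-secreted factor chemerin, was 9.77-fold lower (2254.7 and 230.7), and 7.95-fold lower at a second bright probe set. The homeobox gene Hoxa5 was at least 2.27-fold lower (226.8 and 23.7). Hoxb2 was level (324.5 and 320.4), as was the basic helix-loop-helix repressor Bhlhe40 (1297.0 and 1270.1). Btg2, an antiproliferative gene, had 745.7 and 1122.9 by the brighter of its probe sets, 1.51-fold higher, and 406.3 and 420.2 by the other. A total of 10 response genes, Stra8, Cdx1 and Hoxb1 among them, were below 100 on both arrays.

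**Figure D3:**
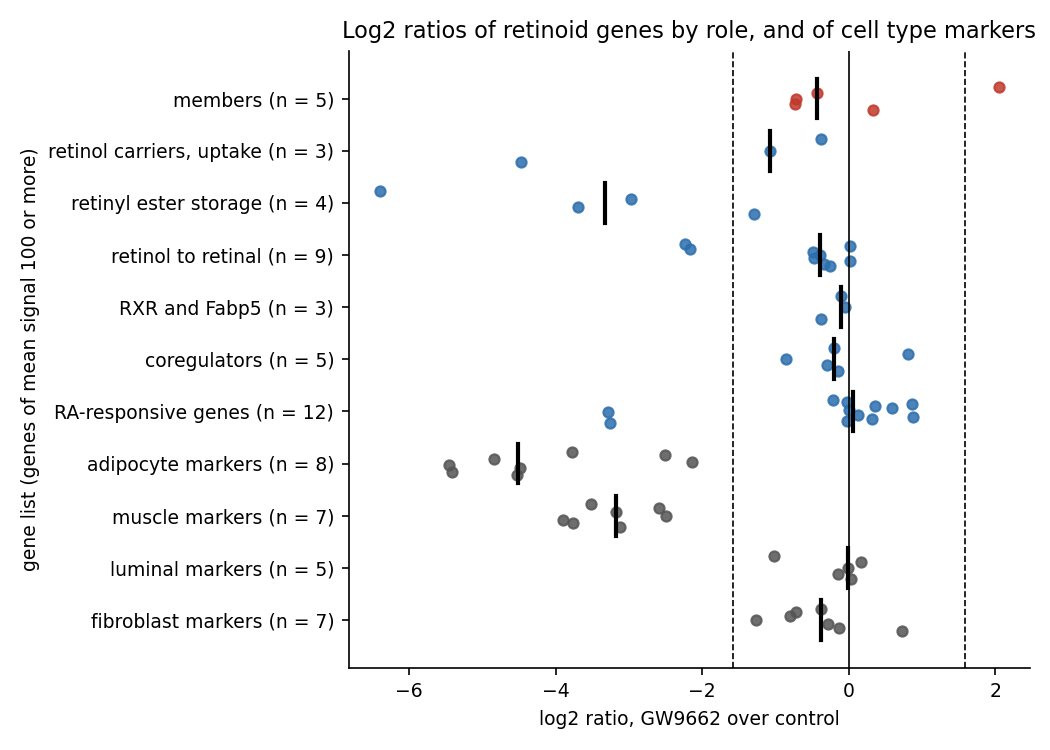
Log2 ratios of GW9662 over control for genes with a mean signal of at least 100, with 1 point per gene, black bars at the median of each list and dashed lines at 3-fold. Members are red, other retinoid roles blue and marker genes of 4 cell types grey. Genes of retinyl ester storage and hydrolysis, labelled retinyl ester storage, have a median of -3.33. They lie on the same side as the adipocyte markers, with a median of -4.51. The genes that respond to retinoic acid lie around 0. No floor was applied to these log2 ratios.

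Marker genes of fat and muscle were lower alongside the genes of retinol transport and of retinyl ester storage and hydrolysis. The part of these markers in those results was not tested. In tissue RNA, fewer cells of a type and less RNA per cell cannot be told apart. All 8 measured adipocyte markers were at least 3-fold lower, with a median log2 ratio of -4.51 and a summed signal of 46268.9 in control and 6196.7 in GW9662 tumors. The brightest were Fabp4 (13670.0 and 3097.0) and Car3 (13263.5 and 2329.6). Adipoq, Lep, Fabp4, Retn and Pparg of this list are also among the lower metabolic genes listed by the paper. They are thus not independent evidence of direction. Of 8 skeletal muscle markers, 7 had a mean signal of at least 100 and were at least 3-fold lower, and the summed signal was 9848.7 and 1059.3. None of the markers in these lists was at 0 on either array. Luminal keratins were abundant on both arrays, with Krt8 at 9496.4 and 9664.7 and Krt18 at 10018.0 and 9025.3, and the median of the luminal list was -0.02.

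The other marker lists differed less. The median log2 ratio was -0.35 for myoepithelium, 0.18 for the 3 measured genes of squamous epithelium and -0.37 for fibroblasts. It was -0.65 for endothelium, -0.09 for macrophages and 0.20 for the 2 measured neural and Schwann cell genes. All 6 endothelial markers were lower, by up to 2.73-fold. Of 7 fibroblast markers, 6 were lower, by up to 2.40-fold, and 1 was higher. A single lymphocyte marker, Ptprc, had a mean signal of at least 100 (656.0 and 622.7). In none of these 7 lists nor among luminal markers was a gene at least 3-fold higher, and over all genes the share was 0.105%.

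Crabp1 and Crabp2 belong to the family of intracellular lipid-binding proteins, small barrel-shaped carriers that also include the Fabp genes and the cellular Rbp genes. This family was looked up after the values were seen. Of the 12 family genes read on the array, 6 had a mean signal of at least 100. Of these, Crabp1 was higher and the other 5 were lower. Since Crabp1 was chosen by its higher signal, nothing is read from its direction here. Over all genes with this mean signal, 52.9% were higher and 47.1% lower. Fabp3, the muscle and heart form, was at least 6.96-fold lower (696.2 and 33.2). Fabp4, the fat cell form, was 4.41-fold lower. The other measured members were Crabp2, Rbp7 and Fabp5, with the values given above. The 6 family genes below 100 on both arrays included the intestinal Fabp2 (1.8 and 9.0) and the brain form Fabp7 (9.9 and 5.5).

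The genes with a pair of signals most like that of Crabp1 were found by the distance between log2 signals on the 2 arrays. The nearest was Il33, an alarmin of epithelial cells (920.4 and 3629.8), at a distance of 0.30. It was followed by Bex1, a small adaptor protein of neural cells (1069.0 and 3543.8, distance 0.48), Avpi1 (861.6 and 2045.0, distance 0.67), Wfdc12, a whey acidic protein family member (526.3 and 2350.7, distance 0.72), and the nuclear RNA Neat1 (1154.7 and 2369.3, distance 0.72). None of them is on the retinoid list. Likeness over 2 arrays says nothing of shared function or control.

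Genes beside Crabp1 on chromosome 9 did not share its difference. Within 500 kb on each side, 12 other genes were read on the array, and 8 had a mean signal of at least 100, of which 4 were higher and 4 lower. The highest log2 ratio among them was 0.53, of the F-box gene Fbxo22 (1121.4 and 1614.0), which starts 435.8 kb away. The nearest genes on either side were Wdr61, 30.2 kb before it, with 2283.1 and 2908.2, and the iron regulator Ireb2, 89.5 kb after it, with 602.4 and 855.1. The growth factor Nrg4, which is made by fat, was at least 4.66-fold lower (465.5 and 85.0). These neighbours were looked up after the values of Crabp1 were seen.

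**Figure D4:**
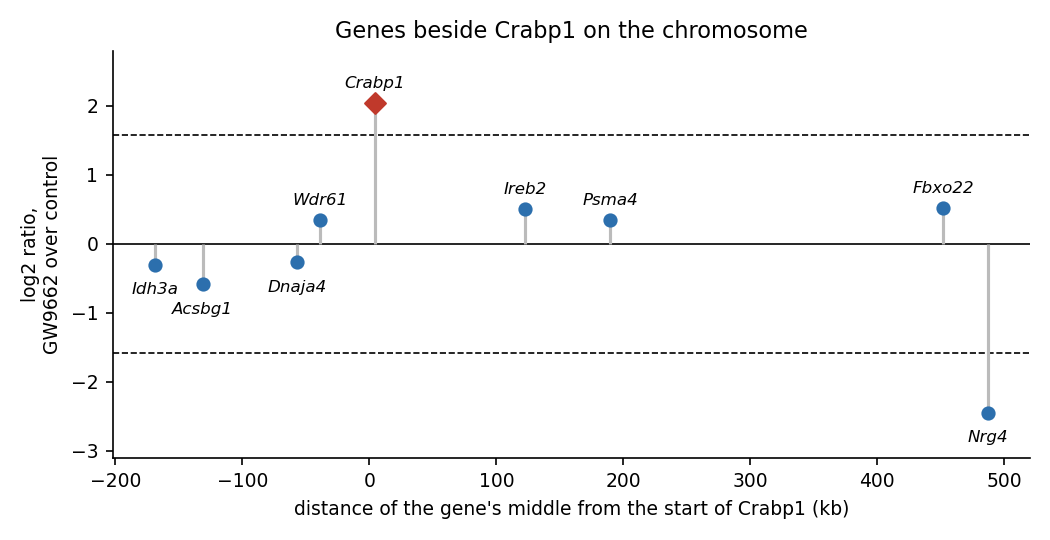
Log2 ratio of GW9662 over control for the genes within 500 kb of Crabp1 that had a mean signal of at least 100, against the distance of the middle of each gene from the start of Crabp1 in kb. Dashed lines mark 3-fold. Crabp1 stands at 2.05, Fbxo22 at 0.53 is the next highest and Nrg4 at -2.45 the lowest.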

How the data were processed

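Mammary tumor RNA pooled from 5 mice per diet was read on 2 Affymetrix mouse arrays. The raw data came from the GeneChip Operating Software of Affymetrix, by the account in the paper's methods. For each probe set the authors deposited a linear intensity on each array. The signal algorithm is not given in the sources used here, nor is the scaling. Each array had a 2% trimmed mean of 500.2. The signals were used as deposited.

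Names of probe sets came from the platform annotation, with symbols updated by gene identifier (RefSeq, GRCm38.p6). A single gene was named for 20380 probe sets, several for 691 and none for 1555, and 64 were controls. Each gene was read by its brightest probe set (mean of both arrays). With 1 array per diet no test was possible, so genes were counted at 3-fold if they reached 300 on either array, the thresholds of the paper's methods. Folds with a signal below 100 used 100 in its place. Log2 ratios, their medians and the 3-fold counts were taken without this floor. The 3 control signals of 0 were read as 0.1.

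Members, lists and alternatives were chosen with earlier results of these data known. Named were all members, per role up to 4 of the brightest genes and 4 of the largest log2 ratios, the 5 genes nearest to Crabp1 and the 2 brightest markers of main lists. Some further genes, such as Rdh10, Lrat, Cyp26a1, Hoxb2, Ptprc, the lipid-binding family, Aldh1a7 and the neighbours of Crabp1, were named outside this rule. Hexamers and their repeats were searched on both strands of windows from 250 bases before to 50 bases after each start site. The counting rule was tested on simulated data, which cannot show how much mice or arrays vary. The software was Python 3.11.15 with pandas 2.3.3, numpy 2.4.6 and matplotlib 3.10.9.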

Additional observations from a re-analysis of the deposited data

How the results depend on the processing

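The log2 ratio of Crabp1 lay between 1.98 and 2.06 under 7 other settings. The settings were centring on the median, quantile normalization, a floor of 100, 50 added to each signal, and 3 other choices of the probe set. The floor and the probe set choices could not change this value, because Crabp1 has 1 probe set and both its signals exceed 100. The count of members at least 3-fold higher was 1 and that of members lower was 0 under the 7 settings. The same held under a signal minimum of 100 and folds of 2 and 2.5. The median of the members lay between -0.58 and -0.38 over these 7 settings and over mean signal minimums of 300 and none. Pathway genes passing the count were 0 higher under every setting and 7 to 9 lower. Of 56 values of the other 8 members, 51 moved by less than the spread between probe sets. The other 5 belong to Stra6, Rara and Rarb, whose signals are below 100 and which the floor sets equal. With 50 added, the log2 ratio was -0.47 for Rara and -0.58 for Rarb. Of these 8 members only Aldh1a3 and Rarg have more than 1 probe set, so the choice of probe set could not move the rest. No array could be left out, and no paired analysis was possible because each diet has 1 array. Signal above background limits what can be said of Stra6, Aldh1a2, Rara and Rarb.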

Other observations

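Crabp2 and Rara are known to be induced by estrogen in breast cancer cells, so the genes of the estrogen and progesterone receptors were read beside them. Esr1 read 13.3 in control and 13.2 in GW9662 tumors, no brighter than olfactory receptor probe sets, and Pgr had 56.4 and 92.5. All of these were below 100, where values have no order, so the arrays give no direction for either receptor gene. By other methods the paper does report a direction. It describes higher Esr1 and Pgr mRNA by qRT-PCR in GW9662 tumors, and higher estrogen receptor protein by immunohistochemistry and western blot. Elf5, a transcription factor of luminal progenitor cells, which Aldh1a3 also marks, had 4138.4 and 2040.0, 2.03-fold lower. The luminal marker list that holds Elf5 did not differ as a whole. Of its 5 measured genes 2 were higher and 3 lower, with a median log2 ratio of -0.02. Whether luminal progenitor cells differed in number was not tested. Sox10, a factor of neural crest and of mammary progenitor cells, had 866.2 and 1145.6, 1.32-fold higher.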
